A study of Mus musculus with 6 samples.

Results

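Read counts were examined for 10 mouse transcription factor genes that direct the myeloid lineage: Runx1 (gene number 12394), Spi1 (20375), Cebpa (12606), Cebpb (12608), Cebpd (12609), Cebpe (110794), Gfi1 (14581), Irf8 (15900), Klf4 (16600) and Myb (17863). They were taken as a list of symbols, matched to the NCBI gene numbers of the count tables, and all 10 were found among the 23282 genes counted. RNA had been sequenced in 9 libraries from 6 groups of blood-forming cells, all on a mixed 129/Sv x C57BL/6 background. In 4 of the groups, whole bone marrow had been transformed by retroviral MLL-AF9, a leukaemia fusion oncogene, and grown for 14 days. The first of these groups came from MLL4-/- marrow co-infected with MLL-AF9-neo and a FOXO3-IRES-GFP retrovirus (2 libraries, called FOXO3 cells below). The second came from MLL4-/- marrow co-infected with MLL-AF9-neo and an empty vector (1 library, EV cells), and both were selected with G418 before sorting. The third held Mll4 f/f cells sorted 5 days after infection with a retrovirus carrying Cre and Tomato, and is labelled Mll4 deleted (2 libraries, Cre cells). Its counterpart held Mll4 f/f cells given the empty Tomato vector, with Mll4 left intact (2 libraries, intact cells). The growth protocol names MxCre donors for Cre and intact cells, and Cre retrovirus goes with deletion, so the effects of the enzyme and of the deletion cannot be told apart. The last 2 groups were LSK cells, marrow cells without lineage markers that carry Sca1 and c-Kit and include stem cells and early progenitors. These were sorted from polyIC-treated MxCre+ littermates aged 2 months, either Mll4 f/f (1 library, labelled Mll4 deleted) or wild type (1 library). About 50 cells were picked for each LSK library and their cDNA was amplified by PCR, whereas MLL-AF9 libraries were made from extracted RNA, so cell type and library method cannot be told apart across the 2 kinds of cell.

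Myeloid fate is set by a small network of transcription factors. Runx1 opens blood-cell enhancers, Spi1 encodes PU.1, the ETS-family factor that commits progenitors to myeloid fates, and Cebpa drives entry into the granulocyte and monocyte pathway, after which Gfi1 and Cebpe act in granulocytes and Irf8 and Klf4 in monocytes. Myb keeps progenitors immature and dividing, and MLL-AF9 leukaemia cells are known to depend on it.

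The libraries held 25895041 to 61950773 counts each. The targeted gene Kmt2d, which encodes Mll4, had 95.6 and 73.7 CPM (counts per 1000000 counts of the library) in Cre cells, against 79.5 and 61.7 CPM in intact cells. In cells from MLL4-/- marrow it had 102 and 115 CPM with FOXO3 and 116 CPM in EV cells, the highest values of the 9 libraries. In LSK cells it had 13.9 CPM in the library labelled Mll4 deleted and 1.88 CPM in the wild type one. Kmt2d was thus not lower where the label says deleted. These are counts over the whole gene, so they do not check whether a part of it was deleted or whether a label is right. The names Mll4-null and Mll4-deficient below follow the labels. Foxo3 had 1292 and 1309 CPM in FOXO3 cells against 27.3 CPM in EV cells. The FOXO3 libraries differed from each other far less than those of any other pair, with a chi-square per degree of freedom of 1.97 over genes, against 191 in the Cre pair and 146 in the intact pair. No label states that the libraries of a group are separate cultures. The p-values therefore describe the spread among these libraries, which may be technical, and each call among the 10 genes is also given with the FOXO3 pair summed to 1 library. Of 12 LSK stem and progenitor markers, 11 were detected in the library labelled Mll4 deleted and all 12 were in the wild type one, with sums of 1213 CPM in the library labelled Mll4 deleted and 1797 CPM in the wild type one. Ly6a, which encodes Sca1, had 28.2 CPM in the library labelled Mll4 deleted and 80.2 CPM in the wild type one, Procr 12.8 CPM in the library labelled Mll4 deleted and 181 CPM in the wild type one, and Slamf1 0 CPM in the library labelled Mll4 deleted and 30.0 CPM in the wild type one. Both libraries held Kit (101.5 CPM in the library labelled Mll4 deleted and 46.8 CPM in the wild type one) and Flt3 (212 CPM in the library labelled Mll4 deleted and 221 CPM in the wild type one), and 12 of 15 monocyte and macrophage markers were at 0 in each.

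The 10 genes did not move as a block. Across the 7 MLL-AF9 libraries the SD of log2 expression was 0.19 for Spi1, 0.32 for Cebpd, 0.40 for Cebpa, 0.53 for Runx1, 0.63 for Cebpe and 0.75 for Cebpb. It was 1.07 for Gfi1, 1.53 for Myb, 2.28 for Irf8 and 3.29 for Klf4. In CPM, which is scaled by the library total alone, Spi1 was thus the steadiest of the 10. The monocyte factors Klf4 and Irf8 varied most, followed by Myb. The tests below also scale libraries by TMM factors, which ran from 0.798 in an intact library to 1.12 in a FOXO3 library. The order of the steadiest genes, Spi1 and Cebpd among them, was not examined under that scaling.

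**Figure D1:**
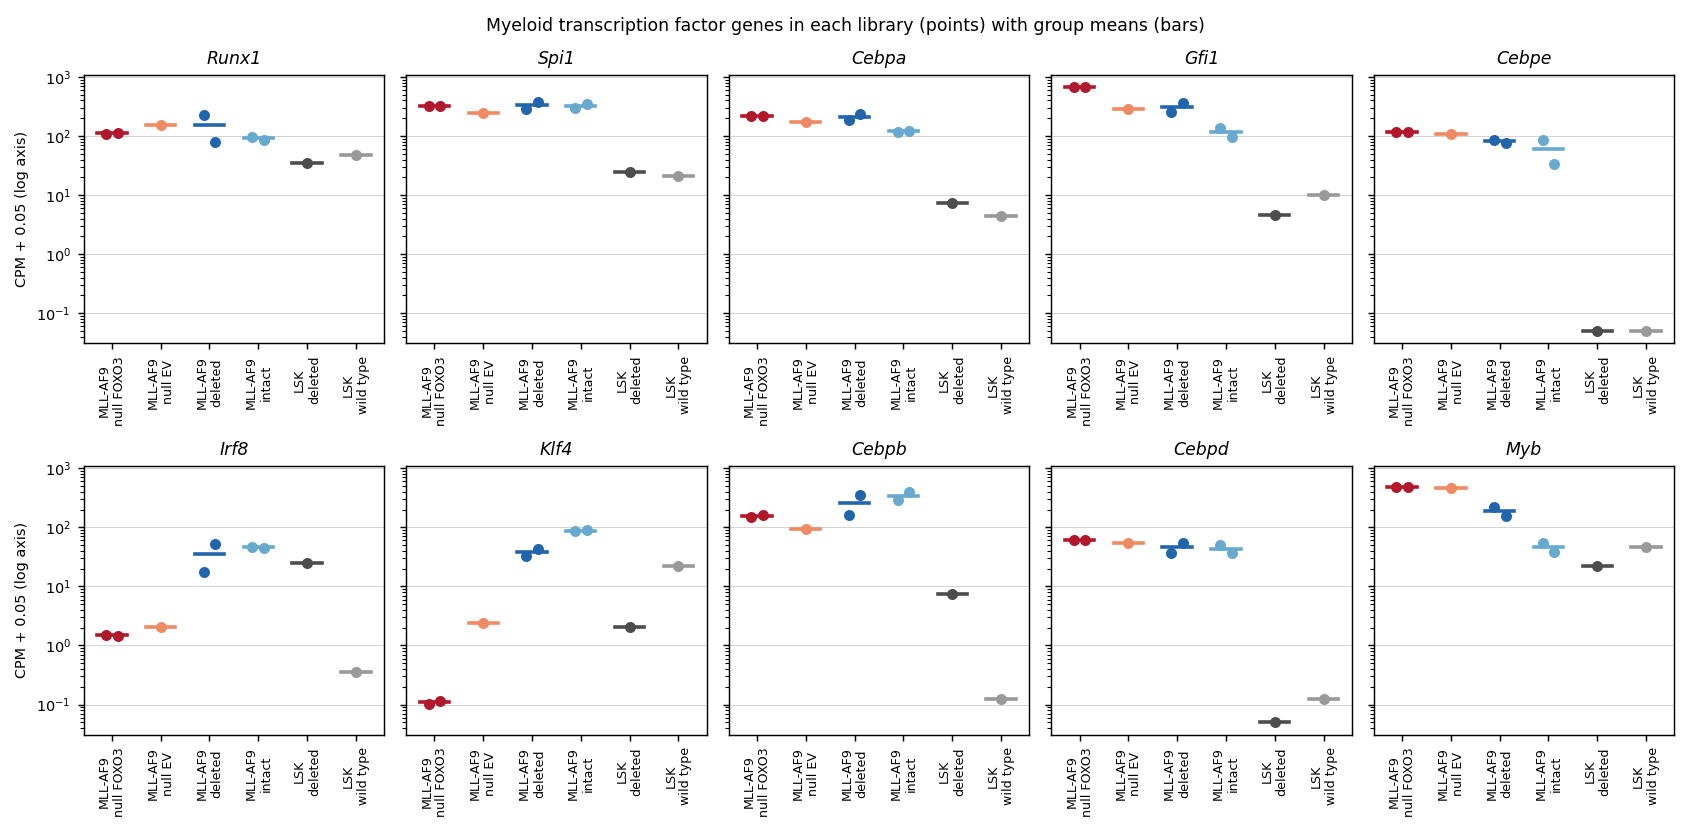
CPM of each of the 10 genes in each library (points; log axis, CPM + 0.05 so that libraries at 0 can be drawn), with the mean of each group as a horizontal bar; groups run from FOXO3 cells (null FOXO3) and EV cells (null EV) at the left through Cre cells (deleted) and intact cells to the LSK libraries at the right. Klf4 spans from 0.0539 CPM in a FOXO3 library to 89.7 CPM in an intact library, whereas Spi1 stays between 245 and 369.8 CPM in all 7 MLL-AF9 libraries.

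Promoter sequences are shown for Klf4, Irf8, Gfi1 and Myb, the 4 genes that passed a test in at least 1 comparison of MLL-AF9 cells. They are RefSeq sequences of GRCm38.p6 and run from 250 bases before to 50 bases after the annotated start, 5′ to 3′ on the gene's own strand. Klf4 lies at chr4:55532426-55532725 (minus strand), Irf8 at chr8:120736108-120736407 (plus strand), Gfi1 at chr5:107725756-107726055 (minus strand) and Myb at chr10:21160935-21161234 (minus strand). Capitals mark matches on either strand to the motifs of factors in the network, namely TTGCNNAA (C/EBP), AACNGNC (MYB), TGNGGT (RUNX), AAATCA (GFI1) and the ETS-IRF composite site.
Klf4: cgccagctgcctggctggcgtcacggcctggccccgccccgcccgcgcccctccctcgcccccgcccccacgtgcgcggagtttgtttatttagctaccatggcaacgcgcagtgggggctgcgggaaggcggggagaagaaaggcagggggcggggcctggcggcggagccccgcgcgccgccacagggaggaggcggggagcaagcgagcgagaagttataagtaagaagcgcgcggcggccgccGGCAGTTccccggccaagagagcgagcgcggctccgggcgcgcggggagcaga
Irf8: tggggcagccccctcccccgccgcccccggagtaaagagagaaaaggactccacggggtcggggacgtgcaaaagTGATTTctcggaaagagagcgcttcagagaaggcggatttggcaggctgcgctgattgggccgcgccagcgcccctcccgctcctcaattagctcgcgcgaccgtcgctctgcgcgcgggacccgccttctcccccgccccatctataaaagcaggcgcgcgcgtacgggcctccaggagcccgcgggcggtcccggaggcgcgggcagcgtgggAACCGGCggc
Gfi1: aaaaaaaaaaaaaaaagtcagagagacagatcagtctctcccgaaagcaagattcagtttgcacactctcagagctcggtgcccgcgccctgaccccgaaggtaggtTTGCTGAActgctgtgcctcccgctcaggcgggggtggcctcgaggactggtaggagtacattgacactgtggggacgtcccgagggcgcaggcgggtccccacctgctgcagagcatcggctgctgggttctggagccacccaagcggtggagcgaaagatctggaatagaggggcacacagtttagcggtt
Myb: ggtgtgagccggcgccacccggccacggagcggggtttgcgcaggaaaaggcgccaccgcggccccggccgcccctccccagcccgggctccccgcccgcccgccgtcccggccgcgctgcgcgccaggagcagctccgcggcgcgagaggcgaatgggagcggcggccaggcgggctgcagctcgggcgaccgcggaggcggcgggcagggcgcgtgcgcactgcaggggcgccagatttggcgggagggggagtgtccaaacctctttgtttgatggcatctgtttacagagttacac
A C/EBP match stood in Gfi1 only among the 7 members with a promoter entry, a motif held by 10.8% of all 32851 promoters. A MYB match stood in 4 of the 7 (Cebpa, Cebpb, Irf8 and Klf4), against 32.8% of all promoters, and a GFI1 match in Irf8 only, against 14.0%. The RUNX motif occurred in Runx1 itself with 3 matches and in no other of the 7, against 45.8% of all promoters, and the ETS-IRF composite in none of the 7, against 2.72%. The short ETS core GGAA, held by 96.0% of all promoters, occurred in all 7 and was not marked. The share of G and C is 74.3% in the Klf4 window, 70.0% in the Irf8 window and 75.0% in the Myb window, against a median of 52.7% over all promoters, and each of these windows holds the GC box GGGCGG, the kind of element bound by SP and KLF factors, which 35.7% of promoters hold. The Gfi1 window has 58.0% G and C and no GC box. TATAAA, held by 13.6% of promoters, occurred in Cebpa, Cebpb and Irf8. A match is a run of letters and not a measured binding site. Spi1, Cebpd and Cebpe had no entry in the table used. Gfi1, Irf8 and Runx1 had 2 entries each, and only the window nearest the annotated start of the gene was searched. The shares over all promoters count every entry.

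Of the genes that open the myeloid programme, Runx1 encodes the DNA-binding subunit of core binding factor. Runx1 had 109.5 and 111 CPM in FOXO3 cells, 156 CPM in EV cells, 227 and 79.0 CPM in Cre cells, and 96.8 and 87.1 CPM in intact cells, against 35.3 CPM in LSK cells labelled Mll4 deleted and 47.0 CPM in wild type LSK cells. The Cre libraries lay on either side of every other MLL-AF9 library. Their 2.87-fold difference exceeded the 1.70-fold range of the 4 MLL-AF9 group means, so no neighbours in the order of the 6 group means differed beyond the spread of the pairs. The library with 227 CPM of Runx1 also held 12346 CPM summed over 10 mast cell, basophil and eosinophil markers, against 1522 CPM in the other Cre library and 6053 and 2825 CPM in intact cells. Among these markers Cpa3, a mast cell protease, had 8380 CPM in that library and 333.6 CPM in the other Cre library. The part of these cells in the Runx1 value was not tested.

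Spi1 had 323 and 322 CPM in FOXO3 cells, 245 CPM in EV cells, 290.2 and 369.8 CPM in Cre cells and 303 and 347 CPM in intact cells. Among MLL-AF9 cells only the EV library fell outside the spread of the others in CPM, by 0.40 on the log2 scale from the next group, against a largest difference of 0.35 within a pair. That margin was small and rests on scaling by the library total. Scaled by TMM, the fold change of FOXO3 over EV cells was 0.35 ± 0.22 on the log2 scale and did not pass (adjusted p = 0.424 by edgeR's quasi-likelihood test). In LSK cells Spi1 had 25.0 CPM in the library labelled Mll4 deleted and 21.1 CPM in the wild type one. Cebpa, whose protein C/EBP alpha is needed to form granulocyte and monocyte progenitors, had 217 and 218 CPM in FOXO3 cells, 174 CPM in EV cells, 186 and 240.4 CPM in Cre cells, and 118 and 124 CPM in intact cells. Every Mll4-deficient MLL-AF9 library thus lay above both intact libraries. In LSK cells Cebpa had 7.38 CPM in the library labelled Mll4 deleted and 4.32 CPM in the wild type one.

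Gfi1 and Cebpe act in the granulocyte branch. Gfi1, a zinc-finger repressor that silences monocyte and stem-cell genes, had 683 and 682 CPM in FOXO3 cells, 291 CPM in EV cells, 259 and 358 CPM in Cre cells, and 138 and 94.7 CPM in intact cells. FOXO3 cells were highest and intact cells lowest of the MLL-AF9 groups, with the EV library between the Cre libraries. LSK cells had 4.52 CPM of Gfi1 in the library labelled Mll4 deleted and 10.2 CPM in the wild type one. Cebpe, the C/EBP factor of late granule formation, had 119 and 118 CPM in FOXO3 cells, 108 CPM in EV cells, 86.6 and 75.6 CPM in Cre cells, and 85.5 and 33.3 CPM in intact cells. The intact pair differed 2.57-fold, more than the 1.99-fold range of the group means. No read of Cebpe was counted in either LSK library, which allows up to 0.116 CPM in the library labelled Mll4 deleted and up to 0.113 CPM in the wild type one (3 counts, counting error only).

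Irf8 and Klf4 act in the monocyte branch. Irf8, the interferon regulatory factor that steers progenitors to monocytes and dendritic cells and away from neutrophils, had 1.48 and 1.40 CPM in FOXO3 cells, 2.04 CPM in EV cells, 17.2 and 52.2 CPM in Cre cells, and 46.9 and 45.4 CPM in intact cells. Both groups made from MLL4-/- marrow were therefore far below all 4 libraries of the other transformation, and the Cre pair again differed widely, by 3.03-fold. Klf4, a zinc-finger factor needed for inflammatory and patrolling monocytes, had 0.0539 and 0.0668 CPM in FOXO3 cells (2 and 3 reads), 2.34 CPM in EV cells (123 reads), 33.1 and 42.3 CPM in Cre cells, and 85.3 and 89.7 CPM in intact cells. These 4 groups did not overlap, and each step between neighbouring group means of MLL-AF9 cells was larger than the 1.28-fold difference within the widest pair. In LSK cells Irf8 had 24.4 CPM in the library labelled Mll4 deleted and 0.301 CPM in the wild type one, whereas Klf4 had 2.01 CPM in the library labelled Mll4 deleted and 22.5 CPM in the wild type one. The 2 monocyte factors thus stood in opposite order in LSK cells.

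Cebpb and Cebpd encode the C/EBP factors induced by cytokines and inflammation, with Cebpb acting in emergency granulopoiesis and macrophages. Cebpb had 149 and 163 CPM in FOXO3 cells, 93.9 CPM in EV cells, 163 and 354 CPM in Cre cells, and 290.2 and 389.6 CPM in intact cells. The order ran downward from intact cells to EV cells, but no neighbouring MLL-AF9 groups differed beyond the 2.18-fold difference within the Cre pair. Cebpd had 61.9 and 61.4 CPM in FOXO3 cells, 55.0 CPM in EV cells, 36.8 and 54.6 CPM in Cre cells, and 50.0 and 36.3 CPM in intact cells, again with no neighbours beyond the spread. In LSK cells Cebpb had 192 reads (7.41 CPM) in the library labelled Mll4 deleted and 2 reads in the wild type one, whereas Cebpd had 0 reads in the library labelled Mll4 deleted and 2 reads in the wild type one.

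Myb had 478 and 488 CPM in FOXO3 cells, 470.0 CPM in EV cells, 218 and 154 CPM in Cre cells, and 54.4 and 38.2 CPM in intact cells. The groups fell into 3 levels that did not overlap, with both groups from MLL4-/- marrow highest and within 0.04 of each other on the log2 scale, Cre cells next and intact cells lowest. LSK cells had 21.8 CPM of Myb in the library labelled Mll4 deleted and 46.4 CPM in the wild type one. The 14 cell cycle markers ran in parallel in MLL-AF9 cells, with summed levels of 5385 and 5397 CPM in FOXO3 cells, 5071 CPM in EV cells, 2767 and 3151 CPM in Cre cells, and 1137 and 1134 CPM in intact cells. In LSK cells their order was the opposite of that of Myb, with sums of 2620.5 CPM in the library labelled Mll4 deleted and 1806 CPM in the wild type one. Their part in the Myb levels was not tested.

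Loss of Mll4 in MLL-AF9 cells was examined by comparing Cre with intact cells. Myb and Gfi1 rose and Klf4 fell, and the other 7 genes did not pass the test. These 3 calls among 10 genes stand beside 14.9% of all genes called in this comparison, 7.97% higher and 6.94% lower. Myb averaged 186 ± 45.2 CPM in Cre cells and 46.3 ± 11.5 CPM in intact cells (SD, n = 2 each), a log2 fold change of 1.74 ± 0.21 (SE). Its adjusted p was 0.0112 in the quasi-likelihood test of edgeR, adjusted by Benjamini-Hochberg over the 14997 genes tested. Gfi1 averaged 309 ± 69.9 CPM in Cre cells and 116 ± 30.6 CPM in intact cells, a log2 fold change of 1.14 ± 0.21 (adjusted p = 0.0254). Klf4 averaged 37.7 ± 6.57 CPM in Cre cells and 87.5 ± 3.05 CPM in intact cells, and fell by 1.50 ± 0.16 on the log2 scale (adjusted p = 0.0101). So the progenitor factor and the granulocyte repressor were higher, and a monocyte factor lower, in cells labelled Mll4 deleted. Fold changes are scaled by TMM and CPM by the library total alone, and the TMM factors of the intact libraries were 0.889 and 0.798 against 1.03 and 1.02 in the Cre libraries, so a fold change lies below the ratio of the CPM means.

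The values of the groups did not overlap for 4 members, Myb, Gfi1, Klf4 and Cebpa, against 59.0% of all genes, so non-overlap was no more frequent among the members than elsewhere. Cebpa, higher in both Cre libraries than in either intact library, had a log2 fold change of 0.53 ± 0.16 (adjusted p = 0.0776) and did not pass. The log2 fold change was -0.26 ± 0.18 for Spi1 (adjusted p = 0.350), 0.20 ± 0.37 for Cebpe (adjusted p = 0.739) and -0.19 ± 0.21 for Cebpd (adjusted p = 0.585). For the genes whose pairs spread most it was -0.69 ± 0.39 for Cebpb (adjusted p = 0.272), -0.69 ± 0.48 for Irf8 (adjusted p = 0.361) and 0.45 ± 0.45 for Runx1 (adjusted p = 0.522). All 10 genes passed the filter on low counts.

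With the FOXO3 pair summed to 1 library, the adjusted p was 0.0484 for both Klf4 and Myb and 0.0764 for Gfi1, so the Gfi1 call was lost, and it was also lost without either intact library (adjusted p = 0.0593 without replicate 1 and 0.0853 without replicate 2). With only the 4 libraries compared, edgeR called none of the 10 and no other gene, with Myb, Gfi1, Klf4 and Cebpa at an unadjusted p under 0.05. DESeq2 on all 7 libraries called those 4, beside 3695 genes in all. Which Cre library was left out set the direction for Runx1, whose log2 fold change was -0.42 without replicate 1 (adjusted p = 0.0402) and 1.02 without replicate 2 (adjusted p = 0.0124). Without that second Cre library Irf8 fell by 1.71 (adjusted p = 0.0110) and Cebpb by 1.36 (adjusted p = 0.0371) on the log2 scale, and without the first Cebpa rose by 0.78 (adjusted p = 0.0207).

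Markers of cell types moved beside these genes. Promyelocyte granule markers, which include Mpo and Elane, summed to 14622 and 16697 CPM in Cre cells against 3709 and 4213 CPM in intact cells, and 6 of 8 rose (4 with the FOXO3 pair summed). Cell cycle markers rose in 11 of 14 cases (9 summed), and megakaryocyte and platelet markers fell in 5 of 9 (2 summed) and erythroid ones in 3 of 7 (1 summed). Monocyte and macrophage markers summed to 5096 and 7506 CPM in Cre cells against 7714 and 10029 CPM in intact cells, with 2 of 15 lower (1 summed) and none at 0 in any of these libraries. In bulk RNA, fewer cells of a type and less RNA per cell cannot be told apart, and the part of cell composition in the Gfi1, Myb and Klf4 values was not tested.

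**Figure D2:**
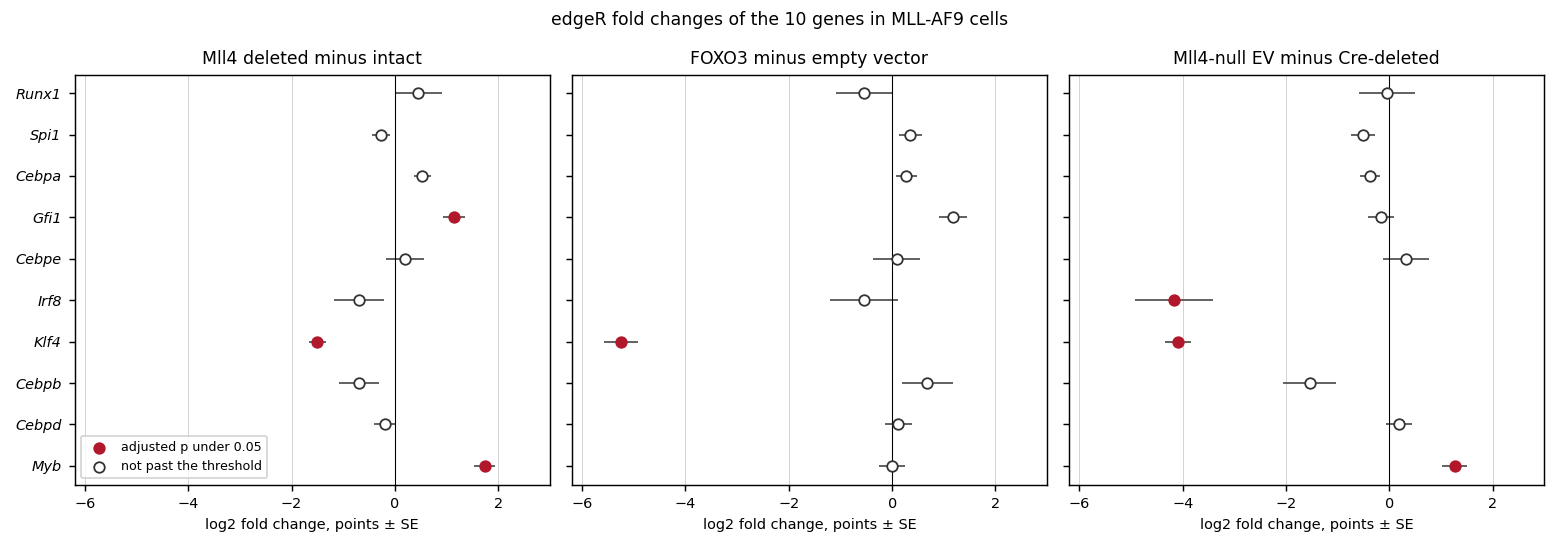
Log2 fold changes (points) with SE (bars) of the 10 genes in 3 comparisons of MLL-AF9 cells, Cre minus intact, FOXO3 minus EV and EV minus Cre; filled points passed an adjusted p of 0.05. Klf4 is the lowest or nearly the lowest gene in every panel (-1.50, -5.24 and -4.09), and Myb is at 1.74, -0.01 and 1.26.

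FOXO3 expression in Mll4-null cells was examined by comparing FOXO3 with EV cells, 2 libraries against 1. Klf4 fell, and the other 9 genes did not pass, beside 7.13% of all genes called, 2.2% higher and 4.93% lower. Its 2 FOXO3 libraries held 5 reads in all against 123 reads in the EV library, a level 38.4-fold lower with an exact 95% counting interval of 16.0-fold to 120-fold. The fitted log2 fold change was -5.24 ± 0.33 (adjusted p = 0.00203 by edgeR's quasi-likelihood test, 0.0258 with the FOXO3 pair summed), and the call held in all 15 alternatives. The EV library was itself low in Klf4, below all 4 Cre and intact libraries, and FOXO3 cells held almost no reads of it.

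Gfi1 was higher in both FOXO3 libraries than in EV cells, with a log2 fold change of 1.18 ± 0.27, and did not pass (adjusted p = 0.0618, and 0.231 with the pair summed). It passed without a low-count filter (adjusted p = 0.0456), with DESeq2 (adjusted p = 0.000301) and without either Cre library (adjusted p = 0.0266 and 0.0272), so its call changed with the setting. Myb, at 478 and 488 CPM in FOXO3 cells and 470.0 CPM in EV cells, had a log2 fold change of -0.01 ± 0.25 (adjusted p = 0.998). The other fold changes were 0.68 ± 0.49 for Cebpb, 0.35 ± 0.22 for Spi1, 0.27 ± 0.20 for Cebpa, 0.12 ± 0.26 for Cebpd and 0.09 ± 0.45 for Cebpe on the log2 scale. Runx1 had a value of -0.55 ± 0.54 and Irf8 of -0.55 ± 0.66, and the adjusted p-values of these 7 genes ranged from 0.424 to 0.944. For Irf8 the counts themselves were 118 in FOXO3 cells and 107 in EV cells, a log2 ratio of -0.50 with an interval of -0.89 to -0.11 that covers counting error only.

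Beside these values, 5 of 15 monocyte and macrophage markers, 6 of 7 erythroid markers and 4 of 10 mast cell, basophil and eosinophil markers were lower in FOXO3 cells. With the FOXO3 pair summed these counts were 2 of 15, 2 of 7 and 1 of 10. The macrophage markers summed to 2175 and 2117 CPM in FOXO3 cells against 1241 CPM in EV cells, with 3 of 15 at 0 in each FOXO3 library. Most of each sum was Ly6c2, an antigen of monocytes and early myeloid cells, with 2053 and 1997 CPM in FOXO3 cells against 992 CPM in EV cells. The part of these cells in the Klf4 value was not tested. With a single EV library, whose spread is taken from the other groups, a property of that culture and the effect of FOXO3 cannot be told apart.

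EV cells and Cre cells are both Mll4-deficient MLL-AF9 cells, but they differ in transformation, vectors and selection as well as in how Mll4 was lost. Irf8 and Klf4 were lower in EV cells and Myb higher, 3 of the 10 genes, beside 21.7% of all genes called, 9.54% higher and 12.2% lower. Irf8 had 2.04 CPM in EV cells against 34.7 ± 24.8 CPM in Cre cells, a log2 fold change of -4.17 ± 0.75 (adjusted p = 0.0192 by edgeR's quasi-likelihood test, 0.0455 with the FOXO3 pair summed). Klf4 had 2.34 CPM in EV cells against 37.7 ± 6.57 CPM in Cre cells, a log2 fold change of -4.09 ± 0.25 (adjusted p = 0.00292, and 0.0148 summed). Myb had 470.0 CPM in EV cells against 186 ± 45.2 CPM in Cre cells, a log2 fold change of 1.26 ± 0.24 (adjusted p = 0.0218), a call lost with the pair summed (adjusted p = 0.0731).

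The 2 transformations of Mll4-deficient cells thus differed most in the 2 monocyte factors. Cebpb had a log2 fold change of -1.54 ± 0.51 (adjusted p = 0.0835) and Spi1 of -0.51 ± 0.22 (adjusted p = 0.153). Values were -0.37 ± 0.20 for Cebpa, 0.33 ± 0.44 for Cebpe, 0.19 ± 0.26 for Cebpd, -0.16 ± 0.25 for Gfi1 and -0.05 ± 0.55 for Runx1, with adjusted p-values from 0.224 to 0.963. Without Cre replicate 1, Runx1 had a log2 fold change of 0.85, whereas without replicate 2 it had -0.61. With only the 3 libraries compared edgeR called none of the 10, with Irf8, Klf4 and Myb at an unadjusted p under 0.05. Monocyte and macrophage markers were lower in 13 of 15 cases (12 with the FOXO3 pair summed), with a summed level of 1241 CPM in EV cells against 5096 and 7506 CPM in Cre cells, and cell cycle markers were higher in 8 of 14 (0 summed). Erythroid markers were higher in 6 of 7 cases (4 summed), and megakaryocyte and platelet markers lower in 5 of 9 (2 summed) and dendritic cell markers lower in 4 of 8 (4 summed). Csf1r, the receptor that monocytes need to survive, had 7.46 CPM in EV cells against 156 and 403 CPM in Cre cells. The part of monocytes in the Irf8 and Klf4 values was not tested. The comparison shares the EV library with the FOXO3 comparison and the Cre libraries with the comparison of Mll4 loss.

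**Figure D3:**
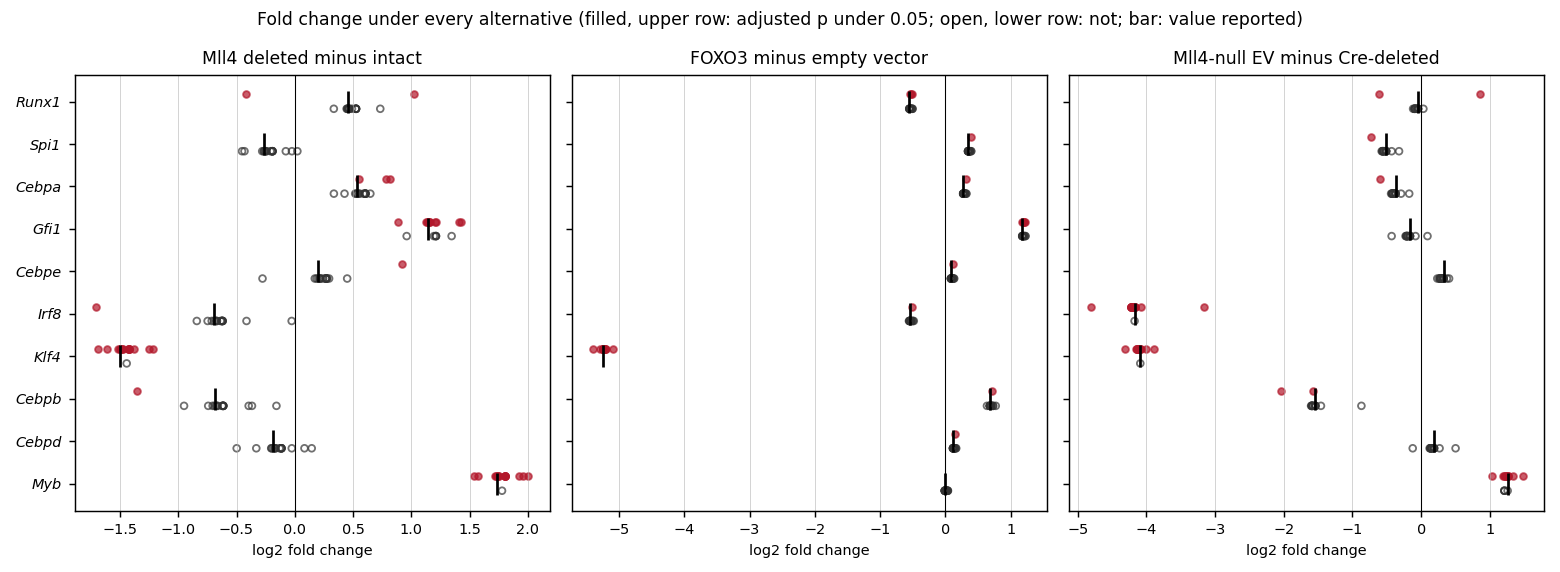
Log2 fold change of each gene under each alternative setting, with a black bar for the value reported; filled points in the upper line of a gene passed an adjusted p of 0.05 and open points in the lower line did not. Klf4 and Myb keep 1 side of 0 for Mll4 loss, whereas the Runx1 points that passed lie at -0.42 and 1.02.

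In LSK cells, with 1 library per genotype and no test, Irf8 and Cebpb were far higher and Klf4, Gfi1 and Myb lower in the library labelled Mll4 deleted. The log2 ratio was 6.34 for Irf8 (631 reads against 8 reads, 95% exact binomial interval 5.35 to 7.56) and 6.62 for Cebpb (192 reads against 2 reads, interval 4.75 to 9.68). It was -3.48 for Klf4 (interval -3.92 to -3.07), -1.17 for Gfi1 (interval -1.49 to -0.85) and -1.09 for Myb (interval -1.24 to -0.94). Runx1 (-0.41), Spi1 (0.24) and Cebpa (0.77) stayed within 2-fold. With upper quartile scaling the ratio was -0.99 for Gfi1 and -0.91 for Myb, which puts both within 2-fold. The intervals cover counting error only, and amplified reads are not independent molecules.

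These ratios must be read against the rest of the pair, in which 63.0% of the 10174 genes that averaged 1 CPM or more differed more than 2-fold, against 5 of the 8 members with a mean that high. Of all those genes, 15.4% differed by at least as much as Irf8, 13.9% as Cebpb and 28.6% as Klf4. The share was 58.5% for Gfi1, 60.4% for Myb, 70.1% for Cebpa, 83.4% for Runx1 and 89.9% for Spi1. So the Gfi1, Myb, Cebpa, Runx1 and Spi1 ratios lay in the range of most genes of these libraries. Monocyte and macrophage markers summed to 7.53 CPM in the library labelled Mll4 deleted and 6.17 CPM in the wild type one, with 12 of 15 at 0 in each. Dendritic cell markers summed to 597 CPM in the library labelled Mll4 deleted and 359 CPM in the wild type one, but did not move together. In the same order, H2-Ab1 had 260 and 78.6 CPM, Cd74 104 and 10.1 CPM, Clec9a 2.43 and 0 CPM, and Siglech 1.70 and 1.35 CPM. Lower were Bst2 (3.44 and 23.3 CPM), Xcr1 (13.6 and 25.3 CPM) and Flt3, also an LSK marker (212 and 221 CPM). Ccr7 and Cd209a had no reads in either library. Erythroid markers summed to 1.12 CPM in the library labelled Mll4 deleted and 203 CPM in the wild type one, and mast cell, basophil and eosinophil markers to 133 CPM in the library labelled Mll4 deleted and 8.95 CPM in the wild type one. The part of such cells in the ratios was not tested. Kmt2d itself went against the label of this pair, and a difference between animals or between picks of 50 cells cannot be told apart from genotype.

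**Figure D4:**
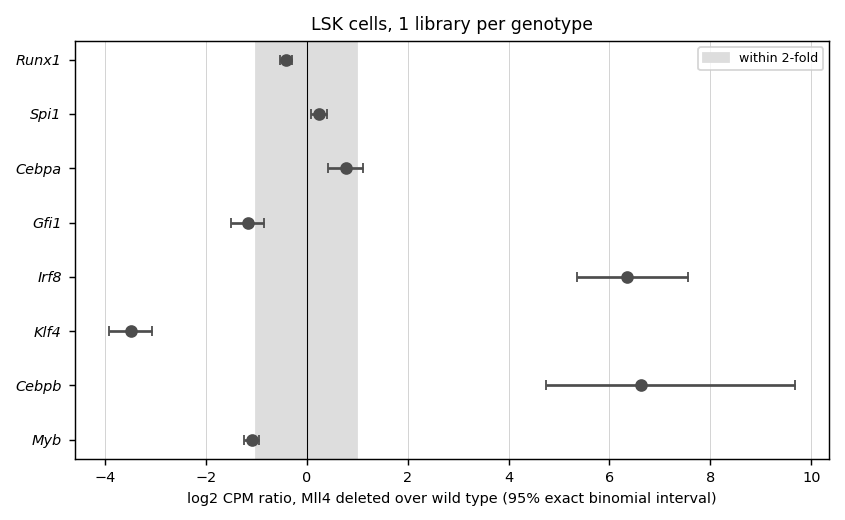
Log2 ratio of CPM in LSK cells, library labelled Mll4 deleted over wild type library (points), with 95% exact binomial intervals (bars) and a grey band for less than 2-fold. Irf8 (6.34) and Cebpb (6.62) lie to the right of the band and Klf4 (-3.48), Gfi1 (-1.17) and Myb (-1.09) to the left; Cebpd and Cebpe, with at most 2 reads, are not drawn.

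Other genes of the network were described from lists, with medians of all genes at -0.03 (Cre minus intact), -0.04 (FOXO3 minus EV) and -0.00 (EV minus Cre) on the log2 scale. The counts below stand beside 14.9% of all genes called in the first comparison (7.97% higher, 6.94% lower). The share was 7.13% in the second (2.2% higher, 4.93% lower) and 21.7% in the third (9.54% higher, 12.2% lower). With the FOXO3 pair summed, the shares called were 2.08%, 1.19% and 6.97%. Among 82 other myeloid and blood transcription factors, 3 rose and 14 fell in Cre cells against intact cells, with a median of -0.26. The 3 with the smallest p were Jund, an AP-1 subunit (-1.04 ± 0.10), Rxra, the retinoid X receptor (-1.32 ± 0.16), and Id2, an inhibitor of helix-loop-helix factors (-1.85 ± 0.23). In FOXO3 against EV cells 4 rose and 10 fell, led by Fosl2 (-2.89 ± 0.21), Rxra (-2.27 ± 0.20) and Sox4 (-2.81 ± 0.26). In EV against Cre cells 10 rose and 28 fell, led by the retinoic acid receptor Rara (-2.31 ± 0.15), Klf6 (-2.51 ± 0.16) and the interferon factor Irf7 (-4.47 ± 0.33). With the FOXO3 pair summed, 0 of these factors rose and 3 fell in each of the first and second comparisons, and 2 rose and 23 fell in the third.

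Among 30 partners and regulators of the members, 6 rose and 5 fell in Cre cells (1 and 2 with the FOXO3 pair summed). The C/EBP inhibitor Ddit3, also named CHOP, fell by 2.71 ± 0.21, Trib3 fell by 3.58 ± 0.32 and Mybl2, the cell cycle relative of Myb, rose by 1.37 ± 0.11 on the log2 scale. In FOXO3 cells 3 fell (2 summed) and 0 rose: the kinase gene Hipk2 (-2.33 ± 0.14), the GATA cofactor Zfpm1 (-5.03 ± 0.32) and Trib1, whose protein directs the breakdown of C/EBP alpha (-2.77 ± 0.45). In EV against Cre cells 5 rose and 4 fell (2 and 2 summed), with Mybl2 at 1.09 ± 0.13 and Zfpm1 at 2.30 ± 0.29. Trib2 had 1.76 CPM on average in Cre cells and 0.0571 CPM in EV cells.

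Targets described for each factor were counted in the same way. Of 17 MYB targets tested, 5 rose and 0 fell in Cre cells (median 0.65), led by the granule proteases Prtn3 (3.26 ± 0.32) and Elane (2.87 ± 0.38) and the mitotic cyclin Ccnb1 (1.30 ± 0.19). Prtn3 and Elane also stand among the promyelocyte granule markers, of which 6 of 8 rose. Ccnb1 also stands among the cell cycle markers, of which 11 of 14 rose. The part of Myb in these targets was not tested. In FOXO3 cells 0 rose and 3 fell (Sox4, Adora2b and Gfi1b; median 0.06), and in EV against Cre cells 3 rose and 1 fell (median 0.32), led by Lmo2 (1.54 ± 0.13), Hmgn2 (1.11 ± 0.19) and Adora2b (-2.07 ± 0.42). Of 16 genes described as repressed by GFI1, 1 rose and 4 fell in Cre cells (median -0.18). The one that rose was the homeobox gene Hoxa9 (1.58 ± 0.12), and Id2 and the macrophage growth factor Csf1 (-1.80 ± 0.22) were among those that fell. In FOXO3 cells 5 of the 16 fell and 0 rose (median -0.59), among them Csf1, at 0.450 CPM on average in FOXO3 cells and 15.5 CPM in EV cells, Id2 (-2.30 ± 0.26) and Socs3 (-1.66 ± 0.22). In EV against Cre cells 1 rose and 7 fell (median -1.47), with Hoxa9 at 3.12 ± 0.13, the cell cycle inhibitor Cdkn1a at -2.70 ± 0.15 and Socs3 at -4.50 ± 0.27.

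Of 23 IRF8 and KLF4 targets tested, 1 rose and 4 fell in Cre cells (median -0.36), led by Pml (0.83 ± 0.09), the integrin Itgax (-3.15 ± 0.36) and Tlr4 (-1.03 ± 0.14). In FOXO3 cells 1 rose and 5 fell (median -0.16), with the protease Ctss at 1.58 CPM on average in FOXO3 cells and 53.3 CPM in EV cells, Itgax at 0.139 CPM in FOXO3 cells and 6.36 CPM in EV cells, and Tlr4 higher (1.24 ± 0.17). In EV against Cre cells 0 rose and 13 fell (median -1.66), led by the chemokine receptor Ccr2 (-4.81 ± 0.48), Ctsc (-2.32 ± 0.29) and Ctss (-4.52 ± 0.62). Itgax, Ccr2, Cd14, Ly6c2 and Cx3cr1 stand both in this list and among the monocyte and macrophage markers, of which 13 of 15 were lower in EV cells. The part of Irf8 and Klf4 in these targets was not tested. Of 24 PU.1 targets, 0 rose and 7 fell in Cre cells (median -0.87; Il7r, Tlr4 and Fcgr3 led), 1 rose and 4 fell in FOXO3 cells (median -0.15; Il7r, Ctss and Tlr4), and 0 rose and 14 fell in EV against Cre cells (median -1.59; Il7r, Tyrobp and Fcgr3). Spi1 itself passed in none of these 3 comparisons.

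Of 19 C/EBP targets tested, 4 rose and 4 fell in Cre cells (median -0.33), with the granule genes Camp (1.80 ± 0.16) and Prtn3 higher and Id2 lower. In FOXO3 cells 0 rose and 3 fell (Id2, Camp at -1.35 ± 0.18 and Trib1; median -1.33), and in EV against Cre cells 0 rose and 7 fell (median -0.90), led by the collagenase Mmp8 (-5.94 ± 0.72), Id2 and Cd14. Of 14 RUNX1 targets tested, 3 rose and 2 fell in Cre cells (median 0.13), with the granule proteases Ctsg (1.77 ± 0.18) and Elane higher. In FOXO3 cells 2 rose and 0 fell (Ptprc at 1.11 ± 0.13 and Cdk6 at 0.75 ± 0.14; median -0.08), with Csf1r at -2.09 ± 0.58 not passing, and in EV against Cre cells 1 rose and 3 fell, with Csf1r at -5.31 ± 0.75, Cdk6 at 0.85 ± 0.13 and Ptprc at -0.61 ± 0.13 (median -0.32). With the FOXO3 pair summed, fewer targets passed. In Cre cells the counts were then 2 higher and 0 lower for MYB, 1 and 2 for GFI1, 0 and 1 for IRF8 with KLF4, 0 and 1 for PU.1, 3 and 1 for C/EBP, and 2 and 0 for RUNX1. In FOXO3 cells 0 were then higher in any list, and 0 were lower for MYB, C/EBP and RUNX1 and 1 each for GFI1, IRF8 with KLF4, and PU.1. In EV against Cre cells they were 1 higher and 0 lower for MYB, 1 and 6 for GFI1, 0 and 10 for IRF8 with KLF4, 0 and 11 for PU.1, 0 and 5 for C/EBP, and 0 and 1 for RUNX1. Several genes stand in more than 1 list (Elane, Prtn3, Id2, Tlr4, Ctss, Csf1r), so the lists are not independent, and they were not tested against other genes. Elane, Prtn3 and Ctsg are also promyelocyte granule markers, and Camp and Mmp8 are also neutrophil markers. The part of each factor in its targets was not tested.

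Likeness between genes was measured as the root mean square difference of log2 CPM after centring each gene. Among the members over the 7 MLL-AF9 libraries, the closest were Cebpa and Cebpd (0.32), Spi1 and Cebpd (0.35) and Spi1 and Cebpa (0.38). Gfi1 was closest to Cebpe (0.63) and then to Myb (0.68), and Klf4 was closest to Irf8 (1.13) and farthest from Myb (4.35). Over all 9 libraries and 9317 genes of at least 10 CPM on average, the nearest genes to Spi1 were Alg12 (0.19) and Sra1 (0.19), to Cebpa Rfx1 (0.16) and 4933427D14Rik (0.19), to Cebpd Man1b1 (0.14) and Clip1 (0.15), and to Runx1 Slc39a8 (0.27) and Slc35d1 (0.30). The nearest to Cebpe were Slc40a1 (0.22) and Golim4 (0.26), to Myb Kif15 (0.33) and Xk (0.33), to Cebpb Abcc5 (0.33) and Chmp4b (0.53), and to Gfi1 Gria3 (0.35) and Col11a2 (0.40). Irf8 and Klf4 had no close neighbour, with Ephx1 (0.46) and Ccnd1 (0.60) nearest to Irf8 and Sdc4 (0.71) and Ifi204 (0.71) nearest to Klf4. With 9 libraries of 6 groups, such likeness rests on the group levels, among them the difference between LSK and MLL-AF9 libraries.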

How the data were processed

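The files as deposited by the authors hold raw read counts, whole numbers for each NCBI gene number, each library in a file of its own. TopHat2 2.0.11, Bowtie 0.12.8 and the mm9 build are named in the submitters' processing notes. How reads were assigned to genes, and whether strand was used, is not given in the sources used here. Overlapping, antisense and near-identical genes may therefore share reads. Names came from RefSeq tables of GRCm38.p6 and matched 23185 of 23282 gene numbers. CPM divides a count by the library total. Tests used edgeR 4.0.16 in R 4.3.3: TMM scaling, filterByExpr, and a quasi-likelihood fit of the 7 MLL-AF9 libraries with 1 coefficient for each of 4 groups, since 1 group holds a single library. P-values were adjusted by Benjamini-Hochberg over all genes tested, with a threshold of 0.05, and the fit was tested on simulated data. LSK libraries, 1 per genotype, were compared by CPM ratios with 95% Clopper-Pearson intervals and no test. A count of 0 was taken to allow up to 3 counts.

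All 10 members were described whatever their values. From each list of related genes the text gives counts and median, and names the 3 genes with the smallest p in a comparison, of which 1 is not reported here. For each member it names the 2 nearest genes, computed with a pseudocount of 0.5 CPM. Genes named beyond this, and marker genes, were chosen after their values were seen. The members and lists were chosen with earlier results of these data known. Other settings tried were DESeq2 1.42.0, scaling by RLE, by the upper quartile or by the total count, a filter at 5 CPM on average or none at all, robust dispersions, the FOXO3 pair added together, each library left out, a fit to the compared libraries alone, and replicate numbers as a block.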

Additional observations from a re-analysis of the deposited data

Results flagged for a closer look

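Gfi1 and Myb moved in opposite directions with the Mll4 label in the 2 kinds of cell. The log2 CPM ratio of Gfi1 was -1.17 in LSK cells, Mll4 deleted over wild type, whereas its log2 fold change was 1.14 in MLL-AF9 cells, Cre over intact. For Myb the LSK ratio was -1.09 and the MLL-AF9 fold change 1.74. Both Cre libraries lay above both intact libraries for each gene, and the 1 LSK library labelled Mll4 deleted lay below the 1 wild type library. The LSK ratios take the labels as given. Whole-gene counts of Kmt2d, which cannot check them, were 13.9 CPM in the library labelled Mll4 deleted and 1.88 CPM in the wild type one. As labelled, Klf4 was lower in both, with -3.48 in LSK cells and -1.50 in MLL-AF9 cells. Cebpa was higher in both, with 0.77 in LSK cells and 0.53 in MLL-AF9 cells. In the same order, signs were opposite for Irf8 (6.34 and -0.69), Cebpb (6.62 and -0.69), Runx1 (-0.41 and 0.45) and Spi1 (0.24 and -0.26). Neither Cebpa nor any of these genes with opposite signs passed the test in MLL-AF9 cells. Whether the labels are right was not tested. In the LSK pair 58.5% of genes differed by at least as much as Gfi1 and 60.4% by at least as much as Myb. The difference between the cell types was not tested, since LSK cells had 1 library per genotype.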

How the results depend on the processing

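For Mll4 loss, the 3 members called became 2 to 6 when 1 library was left out (5 without Cre replicate 1, with Cebpa and Runx1 added, and 6 without Cre replicate 2, with Cebpb, Irf8 and Runx1 added) and 0 with only the libraries compared, where the smallest adjusted p of any gene was 0.0514. Calls among all genes also rose without either Cre library, so the members added there are not particular to this list. With the replicate block, Gfi1, Klf4 and Myb were again called (3), beside 2393 genes in all. Same-numbered libraries had correlated deviations of 0.24 between Cre and intact cells and of -0.02 and -0.03 with FOXO3 libraries, so the numbers were not taken to pair the libraries of all groups, though the first value leaves pairing of Cre with intact libraries possible, and the EV library has no number. For FOXO3, the 1 call, beside 1069 genes in all, became 2 without a low-count filter (1211 genes in all) and with DESeq2 (2185 genes). It became 9 with only the 3 libraries compared, where the spread came from the FOXO3 pair alone and 9710 genes were called in all. With a library left out, the Klf4 log2 fold change ranged from -5.39 to -5.09. For EV against Cre cells, the 3 calls became 2 to 7 when a library was left out and 0 with only the libraries compared. Calls among all genes rose without either Cre library, fell without either FOXO3 library and were absent with only the libraries compared. In those settings the member calls thus moved in the same direction as calls among all genes.

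Signs that turned were those of small fold changes, except for Runx1. For Mll4 loss, Spi1 became 0.022 and Cebpd 0.083 with total-count scaling, which moved the median of all genes from -0.03 to 0.24 and the calls to 2940 higher and 600 lower, against 1196 higher and 1041 lower. With a library left out, Cebpd ranged from -0.50 to 0.15, Cebpe from -0.28 to 0.92 and Runx1 from -0.42 to 1.02. For FOXO3, Myb became 0.0081 with RLE scaling and with DESeq2, 0.0394 with total-count scaling, 0.0354 with the FOXO3 pair summed, 0.011 without a filter, 0.0285 with only the libraries compared, and -0.0094 to 0.0314 with a library left out. For EV against Cre cells, Runx1 became 0.0319 with total-count scaling, and with a library left out Cebpd ranged from -0.12 to 0.50, Gfi1 from -0.43 to 0.0917 and Runx1 from -0.61 to 0.85. The cause was not tested in any of these. Upper quartile scaling moved the LSK ratios of Spi1 to 0.42, Runx1 to -0.24 and Myb to -0.91. Of the other single-gene values, 426 kept direction and, in MLL-AF9 cells, side of the threshold, or stayed within the counting interval in LSK cells. Another 26 passed the threshold and 14 no longer did. Leaving out an intact or FOXO3 library lowered the calls for Mll4 loss from 2237 genes to 787 or 1199 (intact) and 302 or 314 (FOXO3), and summing the FOXO3 pair to 312. Depth limits Klf4 in FOXO3 cells and Cebpd, Cebpe and wild type Cebpb and Irf8 in LSK cells, with at most 8 reads each.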
